A study of Drosophila melanogaster with 2 samples.

Results

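The genes described here are 9 Drosophila melanogaster genes of the Jun N-terminal kinase (JNK) pathway and of dorsal closure, chosen by name out of 13945 protein-coding genes. They are eiger (egr), misshapen (msn), slipper (slpr), hemipterous (hep), basket (bsk), kayak (kay), Jun-related antigen (Jra), puckered (puc) and zipper (zip). Binding of the transcription factor Mad near them was read from chromatin immunoprecipitation and sequencing (ChIP-seq) of whole embryos, 0 to 24 h after laying and of both sexes, from a transgenic fly line with stable expression of Mad fused at its C terminus to GFP. Chromatin was sonicated to 200 to 800 bp and precipitated with an antibody to GFP. There was 1 group of 2 replicates, each with its own embryo record and both from 1 donor line, with no untreated, mutant or stimulated group. Mad was therefore read as a tagged protein in embryos of many stages pooled, in which leading edge cells, amnioserosa and all other tissues are mixed, so a peak has no cell type or time. Each of the 9 genes was matched by symbol to the annotation, and a gene was called bound when a thresholded peak had its summit no more than 5 kb outside the span of the gene, or inside it.

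JNK signalling is a kinase relay. In the fly a TNF-family ligand or other cues act through a Ste20-family kinase on a mixed-lineage kinase, which activates the JNK kinase, then JNK itself, and JNK phosphorylates the AP-1 partners Fos and Jun. In the embryo the pathway is best known for dorsal closure, when the lateral epidermal sheets move over the amnioserosa and fuse at the dorsal midline, driven in part by actin and non-muscle myosin. JNK activity in the leading edge cells turns on puc, a feedback phosphatase, and dpp, a BMP ligand whose signal is carried into the nucleus of receiving cells by Mad, the protein measured here.

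The authors' list of peaks kept by the irreproducible discovery rate, a measure of agreement between replicates, held 3590 peaks, with signals from 70.53 to 1447 in the pooled list of 30000 peaks. The strongest peak left out had a signal of 70.48. Signal is the caller's own value per peak, with no read depth in the sources used here. No test was made and no p-value is given, since 2 replicates of 1 group hold no contrast.

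The sequences of 6 of the peak summits at these genes are shown first: 2 peaks within puc introns, of which peak 3 is at the start of a non-coding RNA, 2 of the 4 intronic peaks of msn, the intronic peak of kay and the strongest of the 16 peaks, between msn and RpL8. They are the plus strand of dm6, 5′ to 3′, and capitals mark a match on either strand to one of the short motifs listed later. All 6 windows hold a match. In msn peak 4 and kay peak 1 it is only to letters searched for after the windows had been read. The windows of msn peaks 1, 2 and 5, puc peak 4 and zip peak 1, not shown, hold no match. The windows lie at chr3R:8110200-8110400 (puc peak 1), chr3R:8113939-8114139 (puc peak 3), chr3L:2581318-2581518 (msn peak 3), chr3L:2583037-2583237 (msn peak 4), chr3R:29773988-29774188 (kay peak 1) and chr3L:2587313-2587455 (msn peak 6, up to the base before the RpL8 start). Peaks are numbered along the chromosome within each gene.
puc peak 1: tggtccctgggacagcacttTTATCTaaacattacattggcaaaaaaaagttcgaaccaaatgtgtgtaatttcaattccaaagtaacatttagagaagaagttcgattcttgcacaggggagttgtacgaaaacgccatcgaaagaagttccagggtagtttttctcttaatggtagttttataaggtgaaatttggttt
puc peak 3: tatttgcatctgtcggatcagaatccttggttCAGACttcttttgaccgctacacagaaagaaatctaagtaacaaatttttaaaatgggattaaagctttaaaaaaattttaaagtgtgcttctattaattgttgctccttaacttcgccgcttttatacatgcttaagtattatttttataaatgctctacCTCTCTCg
msn peak 3: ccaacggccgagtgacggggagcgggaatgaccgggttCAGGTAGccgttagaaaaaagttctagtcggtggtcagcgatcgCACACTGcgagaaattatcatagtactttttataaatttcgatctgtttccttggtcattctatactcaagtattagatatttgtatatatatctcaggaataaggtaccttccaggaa
msn peak 4: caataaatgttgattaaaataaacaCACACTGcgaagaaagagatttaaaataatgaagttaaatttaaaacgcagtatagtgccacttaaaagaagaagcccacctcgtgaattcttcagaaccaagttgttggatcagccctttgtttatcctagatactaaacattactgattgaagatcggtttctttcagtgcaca
kay peak 1: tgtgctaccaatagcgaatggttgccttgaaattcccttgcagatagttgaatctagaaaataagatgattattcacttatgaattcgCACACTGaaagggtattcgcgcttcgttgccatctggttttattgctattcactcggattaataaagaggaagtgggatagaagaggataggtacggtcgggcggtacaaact
msn peak 6: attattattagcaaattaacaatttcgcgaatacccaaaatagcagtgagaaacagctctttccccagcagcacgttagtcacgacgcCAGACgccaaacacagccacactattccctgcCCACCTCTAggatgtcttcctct

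Thresholded Mad-eGFP peaks lay inside the genes of the ligand (egr), the upstream kinase (msn), Fos (kay), the feedback phosphatase (puc) and the myosin (zip), and 1 lay beyond the 3' end of Jra, at its neighbour. With the 5 kb on each side, these 6 of the 9 genes were bound, against 45.8% of all protein-coding genes, and slpr, hep and bsk were not. The 9 genes are long, with a median span of 11230 bp against 2166 bp for all genes, and in their length classes (deciles of all genes by span) a mean of 56.1% of genes were bound, so 6 bound and 3 unbound of 9 is near the background share and says nothing particular to the relay. Peaks inside the gene were the more frequent kind: 5 of the 9 genes held a summit in their span against 10.1% of all genes, and 4 (egr, msn, kay and puc) held one in the span and outside all of their own exons against 6.98%. That last rule was added after the values were seen, and neither share is matched for length. Of the 9 genes, zip alone had a summit within 500 bp of any of its own transcription start sites (TSSs), against 19.7% of all genes. With 9 genes, 1 is near that share. For 4 genes (msn, kay, puc and zip) a peak had the gene itself as its nearest protein-coding TSS, against 18.9% of all genes. That share is not matched for length or number of starts, and all 4 are in the longest length class.

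The 16 peaks at the 6 bound genes were of middling height. Their median signal was 106.1 against 106.3 for all thresholded peaks, their range was 74.4 to 186.8, and 1 of them lay above the upper quartile of all peaks at 152.2. The strongest peak of a bound gene had a median of 115.6 over the 6 genes and 124.8 over all 6393 bound genes. By position 8 peaks were at a promoter (within 500 bp of any TSS, also one of a non-coding RNA), 6 were intronic, 1 lay in a 5' UTR and 1 in the exon of a non-coding RNA. Promoters held 50% of these peaks and 60.8% of all thresholded peaks, and introns 37.5% and 26.8%.

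**Figure D1:**
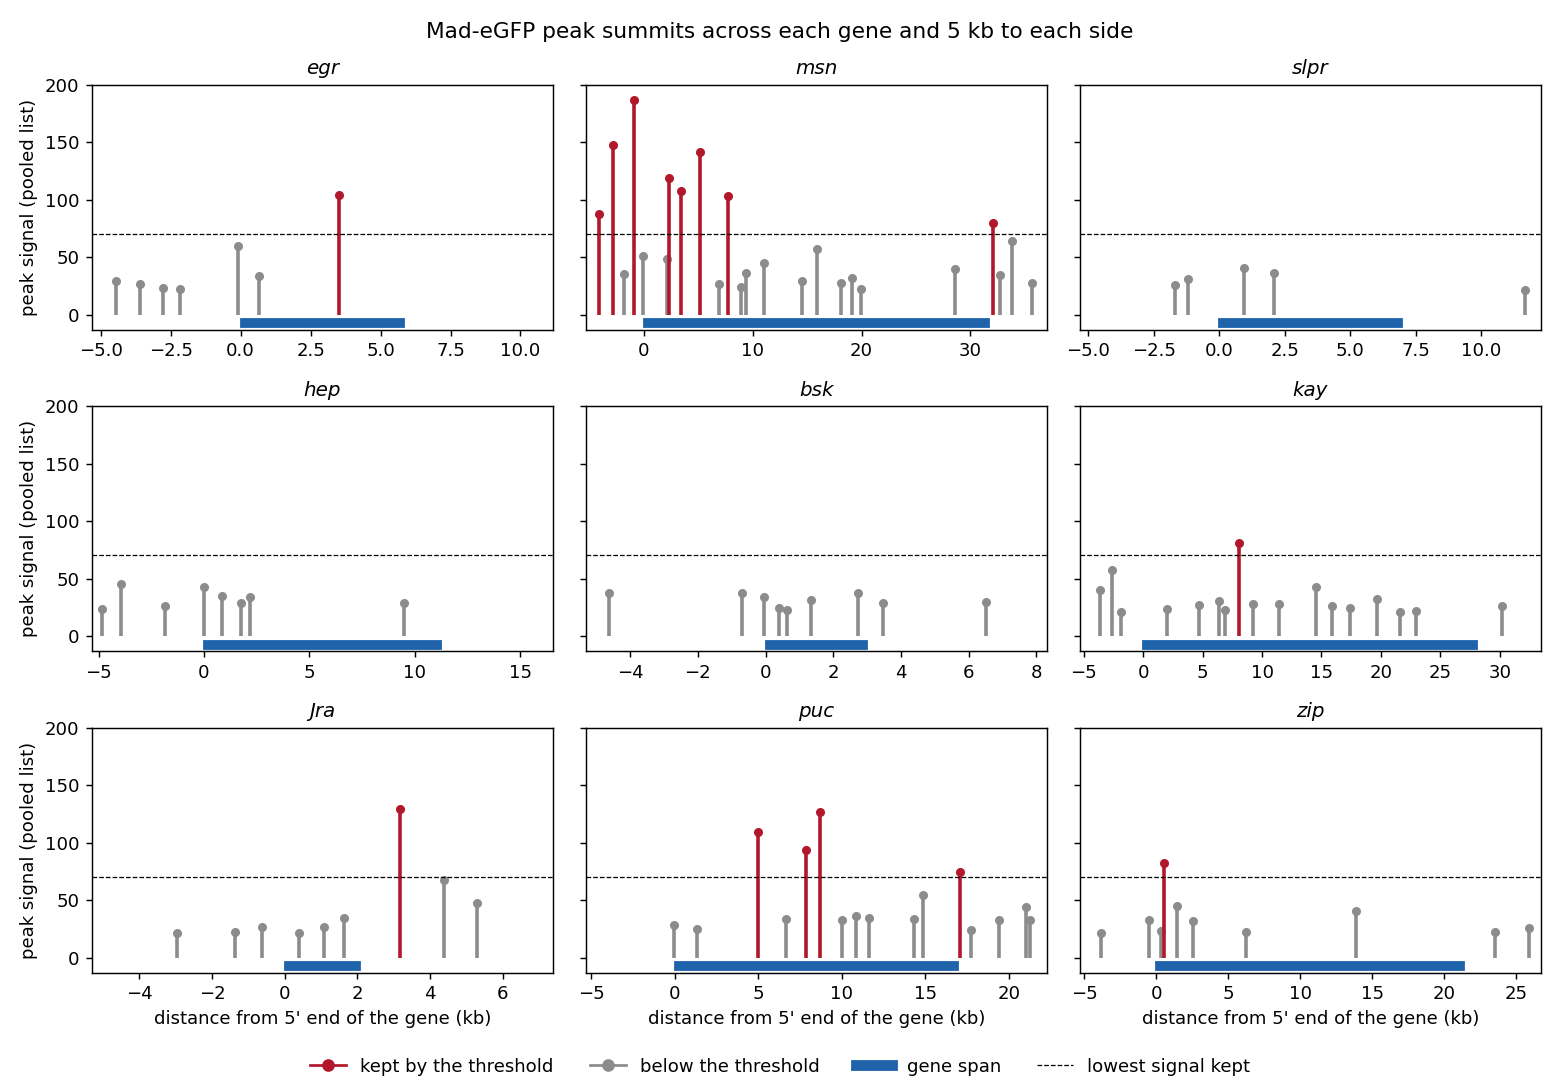
Each panel shows 1 gene with 5 kb on either side, the distance from its 5' end in kb on the horizontal axis and the signal of each pooled peak on the vertical axis; red stems are thresholded peaks, grey stems are weaker ones, and the dashed line is the lowest signal kept. The red stems crowd at the 5' end of msn and stand inside puc, egr and kay, and slpr, hep and bsk have grey stems alone.

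The ligand gene egr (FBgn0033483, chr2R:10078366-10084210, plus strand) encodes the fly TNF. It had 1 peak at chr2R:10081683-10082078, in intron 2 and 3515 bp downstream of its TSS, with a pooled signal of 104.4 that ranked 1846 among the 3590. Replicate 1 gave it 48.3 and replicate 2 gave it 56.4. The summit also lay 441 bp from the start of a small nucleolar RNA inside egr (snoRNA:Or-CD13), and the nearest protein-coding TSS was that of CG2269, 3288 bp away. At the egr promoter itself there was a weaker peak at chr2R:10078067-10078462, 101 bp upstream of the TSS, whose signal of 59.6 was below the threshold. It was in both replicate lists, at 27.6 and 31.7.

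The gene msn (FBgn0010909, chr3L:2554847-2586540, minus strand), which encodes the Ste20-family kinase that feeds into the relay, held the most peaks by far, 8 of the 16. Having 8 or more thresholded summits put it among 13 of all genes, or 0.0932%, and all 13 are in the longest length class, where bound genes had a median of 2. Within that class 0.932% of genes reached the count. The peaks formed a run of 7 at the 5' end, where neighbouring summits were 1097 to 3179 bp apart, and 1 lay alone 24400 bp away at the other end. Inside the gene 4 peaks were intronic in all 8 msn transcripts. Peak 3 in intron 2 was the highest of these, with a pooled signal of 141.6, at 74.3 in replicate 1 and 60.7 in replicate 2, and lay 4836 bp downstream of the TSS. Peak 4, in the same intron of 6084 bp, had 107.8 (46.4 and 61.2) at 3117 bp, and peak 5 had 118.6 (54.0 and 66.7) at 2020 bp. In intron 3, peak 2 had 102.9 (45.3 and 58.6) at 7424 bp. These 4 values were close together, and the replicates ordered them differently, with peak 3 first in replicate 1 and peak 5 first in replicate 2.

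The other 4 peaks counted for msn stood at its neighbours. Peak 6, at chr3L:2587215-2587610, was the strongest at any of the 9 genes, with 186.8 in the pooled list, 90.3 in replicate 1 and 99.7 in replicate 2. It lay 43 bp upstream of the start of RpL8, a protein of the large ribosomal subunit, and 873 bp upstream of the msn TSS, between the divergent genes. Peaks 7 and 8 lay at dos, an adaptor of receptor tyrosine kinase signalling: peak 7 was 50 bp upstream of its TSS with 147.3 (63.7 and 84.4), and peak 8 was in its 5' UTR with 88.0 (40.5 and 46.7). Peak 1, at the far end, was 417 bp beyond the 3' end of msn and 138 bp upstream of Spn, a scaffold of protein phosphatase 1, with 79.9 (42.0 and 39.7). At the msn promoter there was only a weaker peak, 51 bp upstream of the TSS, of 51.1 in the pooled list, which differed between the replicates at 16.2 and 38.1.

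The core kinases slpr, hep and bsk had no thresholded peak, in length classes where 49.6% to 56.3% of genes had one. For slpr (FBgn0030018, chrX:8170229-8177185), the mixed-lineage kinase, the highest weaker peak was in a coding exon with 40.8 in the pooled list, 28.2 in replicate 1 and 14.8 in replicate 2. For hep (FBgn0010303, chrX:13079205-13090434), the JNK kinase, a weaker peak sat 2 bp from the TSS with 42.7, at 24.7 and 26.8, so both replicates held it at a like height. The highest weaker peak near hep, 45.8 (27.1 and 19.9), was at the promoter of CG2200. For bsk (FBgn0000229, chr2L:10247502-10250501), the fly JNK, the peak 56 bp upstream of the TSS had 33.8 (16.9 and 14.1), and the highest of its 9 weaker peaks reached 37.6. All of these are well under the lowest signal kept. A gene with no thresholded peak is not shown to be free of Mad, since weaker peaks were listed at all 9 genes, as at 87.3% of all protein-coding genes.

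Of the AP-1 pair, kay (FBgn0001297, chr3R:29765995-29794113, plus strand), the fly Fos, had 1 peak in its own intron and Jra, the fly Jun, had 1 peak that lay at its neighbour. The kay peak at chr3R:29773890-29774285 was in intron 1 of 3 of its 5 transcripts, 1196 bp downstream of a kay TSS. The start of a non-coding RNA on the opposite strand, lncRNA:CR46110, was nearer, at 963 bp. The pooled signal of 81.3 ranked 2840 of 3590, replicate 1 had 44.6 and replicate 2 had 39.6, and 87.3% of bound genes had a higher strongest peak. A weaker peak 2626 bp upstream of kay had 57.9 (22.1 and 38.1).

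Jra (FBgn0001291, chr2R:10096480-10098556, plus strand) is a short gene with no thresholded peak inside it. The peak counted for it, at chr2R:10099465-10099860, was 1107 bp beyond its 3' end and 14 bp upstream of the start of 14-3-3zeta, a phosphoprotein-binding adaptor, so by the rule of the nearest TSS it belongs to that gene. The pooled signal of 129.0 came with 62.9 and 66.7 in replicates 1 and 2. A second 14-3-3zeta promoter peak within the 5 kb, at chr2R:10100666-10101061, had 67.8, the highest of all weaker peaks here and just under the threshold, with 58.7 in replicate 1 and no peak in the replicate 2 list. The genes egr and Jra are 12269 bp apart on the same strand of the same arm, and no peak was counted for both.

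The feedback phosphatase gene puc (FBgn0243512, chr3R:8105332-8122294, plus strand), the standard readout of JNK activity in the fly, had 4 peaks, a number that 2.28% of all genes and 9.32% of the longest class reached. Its 3 inner peaks lay in its introns and far from its own TSSs. Peak 1, at chr3R:8110102-8110497 in intron 2, had 109.6 in the pooled list, 47.0 in replicate 1 and 57.3 in replicate 2, 3812 bp from a puc TSS. Peak 2, at chr3R:8112998-8113393 in intron 3, had 94.1 (51.7 and 57.0). Peak 3, at chr3R:8113841-8114236 in the same intron of 9210 bp, was the highest with 126.9 and nearly equal in the replicates at 63.6 and 65.0. Peaks 2 and 3 were 843 bp apart, and both also lay at lncRNA:CR44331, a non-coding RNA on the opposite strand within that intron: peak 3 was 36 bp from its start and peak 2 was in its exon. From position alone these peaks cannot be given to puc or to the non-coding RNA. Peak 4, 120 bp beyond the 3' end and 311 bp upstream of CG7878, was the weakest of the 16 with 74.4 (36.5 and 37.4), and the one not among the 3590 strongest peaks of replicate 2, where it ranked 3953. At the puc TSSs there were only weak peaks, of 28.3 and 25.2 in the pooled list. They had 26.9 and 20.3 in replicate 2 and no peak in the list of replicate 1.

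The gene zip (FBgn0287873, chr2R:24990570-25011965, minus strand), the heavy chain of non-muscle myosin II that contracts in the closing epidermis and amnioserosa, was the only one with a peak at its own promoter. The summit was 44 bp downstream of a zip TSS, with 82.1 in the pooled list, 37.7 in replicate 1 and 53.9 in replicate 2. This was the largest gap between replicates among the 16, 0.52 on the log2 scale. It ranked 2778, and 85.9% of bound genes had a higher strongest peak. A weaker peak 666 bp downstream of the TSS, in the 5' UTR, had 45.0, with 40.9 in replicate 2 and no peak in replicate 1.

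**Figure D2:**
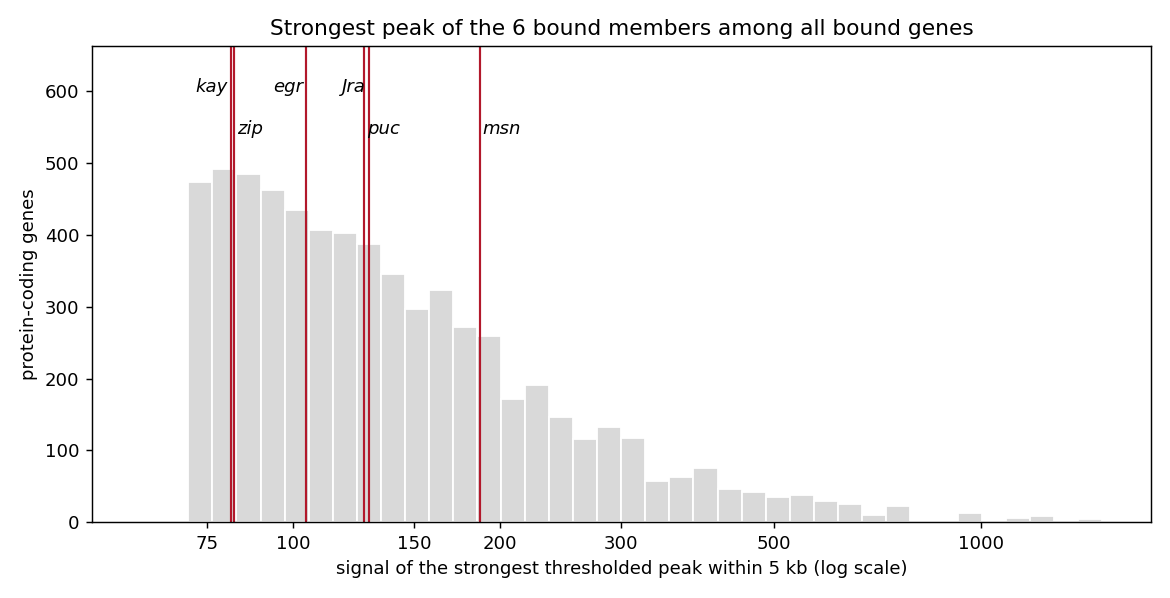
The histogram counts all 6393 bound protein-coding genes by the signal of their strongest thresholded peak within 5 kb, on a log axis, and each red line is 1 of the 6 bound genes. kay and zip lie in the low bins at 81.3 and 82.1, egr, puc and Jra between 104.4 and 129.0, and msn at 186.8 by its RpL8 promoter peak.

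All 16 peaks had a counterpart in both replicate lists. Signal in replicate 1 ran from 36.5 to 90.3 with a median of 47.7, and in replicate 2 from 37.4 to 99.7 with a median of 58.0. It was higher in replicate 2 at 13 of the 16, as it was at 75.7% of all thresholded peaks. The log2 ratio of replicate 2 to replicate 1 had a median of 0.18 (SD 0.22, n = 16), from -0.29 at msn peak 3 to 0.52 at zip, against 0.28 (SD 0.46, n = 3585) over all. Both replicate lists held 15 of the 16 among their 3590 strongest peaks, a property of 74.7% of all thresholded peaks. The pooled signal was 0.865 to 1.05 times the sum of the replicates.

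**Figure D3:**
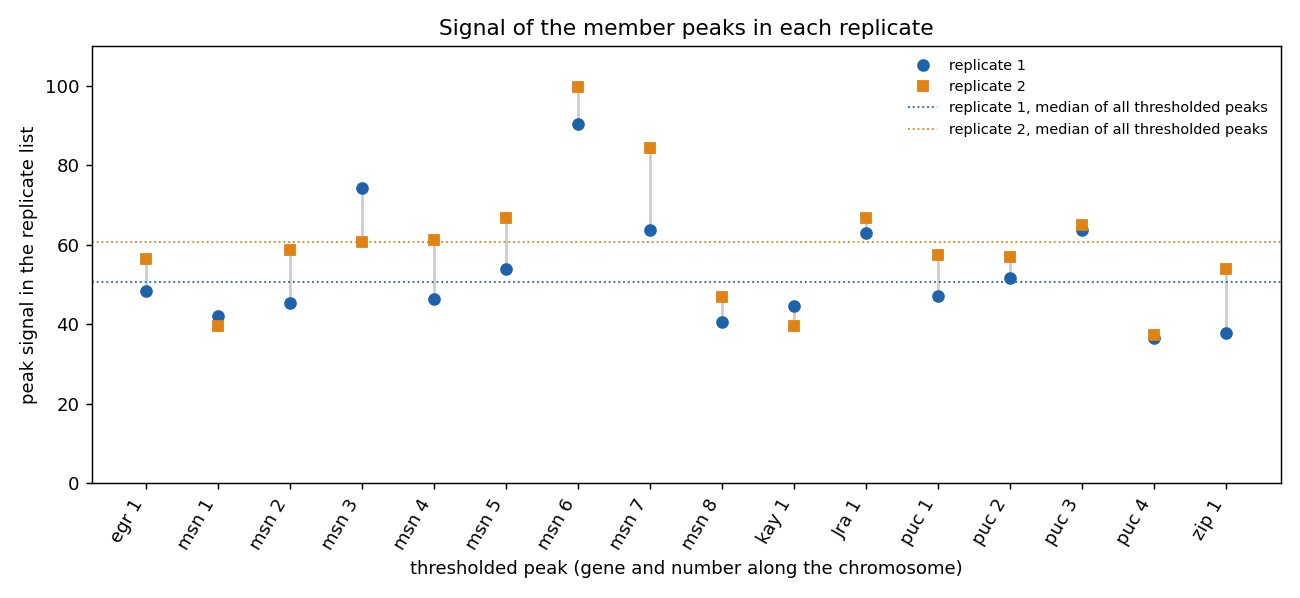
Each of the 16 thresholded peaks is drawn with its signal in replicate 1 (blue circle) and replicate 2 (orange square), in the order of the relay, and the dotted lines are the medians of all thresholded peaks in each replicate. Replicate 2 is the higher at 13 peaks, and msn peak 6 stands highest in both.

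Below the threshold the 9 genes held 89 more summits, between 5 (slpr) and 16 (msn and kay) each. Per 10 kb of extended span there were 4.10 at these genes and 2.67 over all protein-coding genes. The same density of thresholded summits was 0.736 against 0.437, and 0.456 at the members other than msn. Of these weaker peaks, 40 of the 89 (44.9%) overlapped a peak in both replicate lists, against 50.5% of all weaker peaks. Another 19 did so in replicate 1 alone, 26 in replicate 2 alone and 4 in neither. Some of the overlapped replicate peaks also served a thresholded neighbour, as for the weaker peaks of 48.3 in msn and 22.8 in zip. The median signal of the 89 was 30.4 against 28.9 for all weaker peaks, and 7 exceeded 50. At the genes' own starts, 15 lay within 500 bp of an own TSS, at 8 of the 9 genes, against 42.8% of all protein-coding genes with such a peak, a share not matched for length or number of starts. Neither figure requires a peak in both replicate lists. At Jra and puc these summits overlapped a peak of replicate 2 alone. Of the 16 thresholded peaks 1 lay so near an own TSS.

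Short sequence motifs were searched on both strands within 100 bp of each of the 16 summits, and their shares are given beside all 3590 summits. The AP-1 site TGANTCA, the binding site of Fos with Jun, was in none of the 16 windows and in 4.37% of all, and in 1 (msn peak 3) when the window was widened to 200 bp. The CRE-type site TGACGTCA was in none and in 0.362% of all. Of Mad-type motifs, the GC-rich GCCGNCG (none; 4.76% of all), GGCGCC (none; 4.57%) and the silencer element bound by Mad, Medea and Schnurri (none; 0.0557%) had no match within 100 bp, and within 200 bp GCCGNCG was in 2 windows (msn peak 2 and zip; 13.2% of all). The sequence CAGAC, the core of a SMAD-binding element, was in 4 windows (egr peak 1, msn peaks 6 and 8, puc peak 3) and in 18.1% of all, and in 1 window within 50 bp and 7 within 200 bp. In windows 600 bp to the side CAGAC was in 24.0% for all summits and in 6 of 32 for these 16. The promoter motifs TATCGATA of DREF (6.16% of all) and GGTCACACT of M1BP (3.15%) were in none of the 16. The Zelda site CAGGTAG was in msn peak 3 (0.780% of all), the GAGA factor repeat GAGAGAG in puc peak 3 (3.90%), and the GATA site AGATAA in puc peaks 1 and 2 (12.6%). None of these 3 motifs had a match within 50 bp of the 16 summits. The base composition was ordinary, with a median GC content of 36.1% (31.8% to 49.3%) against 36.8% for all. Such matches are letters in a window, not shown to be sites.

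Other genes of the pathway were taken from 3 lists, without the 9 genes above. The lists were chosen with earlier results of these data known, so their bound shares are descriptions only. Of 27 JNK transducers and regulators 20 (74.1%) were bound, against a mean of 55.0% in their length classes. Of the 27, 8 (29.6%) held a summit in their span, against 10.1% of all genes. Within 500 bp of an own TSS 12 (44.4%) had one, against 19.7%, and neither share is matched for length. Among those whose strongest peak was nearest their own TSS, Btk, a Tec-family kinase, had 341 in the pooled list (141 and 197.6 in the replicates), POSH, a scaffold of the relay, had 296 (151 and 149), and aop, an ETS-family repressor, had 265 (116 and 141). Src64B, a Src kinase, had 239 (92.8 and 130) and Tab2, the partner of the kinase Tak1, had 184 (76.9 and 109). Of those with the strongest peak nearest another gene, Mkk4, the other JNK kinase, had 557 (217 and 346) by the start of SLIRP2, Mtl, a Rac-like GTPase, had 550 (258 and 287) by CG5611, and Shark, a tyrosine kinase, had 398 (187 and 204) by mrj. Each of these 3 genes had its own TSS within 500 bp of some summit too. Traf4, Ask1, grnd, Rac2, dock, Cka and Ack-like were not bound.

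Of 14 genes known as JNK targets in the fly, 9 (64.3%) were bound against a mean of 53.2% in their length classes. The count rests on both replicates together: with as many of the strongest peaks of 1 replicate alone, 5 (35.7%) were bound in replicate 1, against 46.2% of all genes, and 6 (42.9%) in replicate 2, against 45.2%. Of the 14, 4 (28.6%) held a summit in their span, against 10.1% of all genes. Within 500 bp of an own TSS 2 (14.3%) had one, against 19.7%, and neither share is matched for length. The median strongest signal of the 9 bound targets was 98.7, and 4 of them exceeded the median of 124.8 over all bound genes. ImpL2, an insulin-binding protein, had 269 (113 and 156) in an intron and equally near CG46460, and hid, a cell death gene, had 186 (64.9 and 118) at its promoter. Zasp52, an adhesion and sarcomere protein, had 143 (61.3 and 79.5) at an intergenic peak outside its span, 13611 bp from its nearest TSS. The gene dpp had 142 (55.2 and 91.4) in an intron 5248 bp from its TSS, and Thor, the translation inhibitor 4E-BP, had 98.7 (51.3 and 47.1). The profilin gene chic had 74.6 (29.9 and 47.0), nearest Ucp4B, and the junction protein gene jub had 72.9 (31.8 and 35.3), at Clic. Mmp1, Ilp8, upd1, upd3 and scaf were not bound.

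Of 22 dorsal closure genes, most of them of the cytoskeleton and adhesion, 19 (86.4%) were bound against a mean of 58.2% in their length classes. The list also holds genes of other kinds, namely ush, pnr, put, tkv, Egfr and Pvr. Of the 22, 12 (54.5%) held a summit in their span, against 10.1% of all genes. Within 500 bp of an own TSS 14 (63.6%) had one, against 19.7%, and neither share is matched for length. The junction protein gene cno had 501 (218 and 287) in an intron, by, the fly tensin, had 244 (111 and 134), and sqh, the regulatory light chain that pairs with zip, had 167 (59.3 and 109) at its promoter. The adhesion gene ed had 163 (80.0 and 78.2) and pyd, the fly ZO-1, had 161 (87.5 and 71.7). Nearest another gene, ena, an actin regulator, had 218 (99.4 and 124) by CG15111, Rok, the kinase that activates myosin, had 136 (62.4 and 70.9) by mthl1, and ush, a partner of GATA factors, had 1239 (559 and 674) nearest cbt. Only alpha-Cat, Egfr and pnr of this list were not bound. The zip peak, at 82.1, was lower than that of its light chain sqh in the pooled list and in both replicates.

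**Figure D4:**
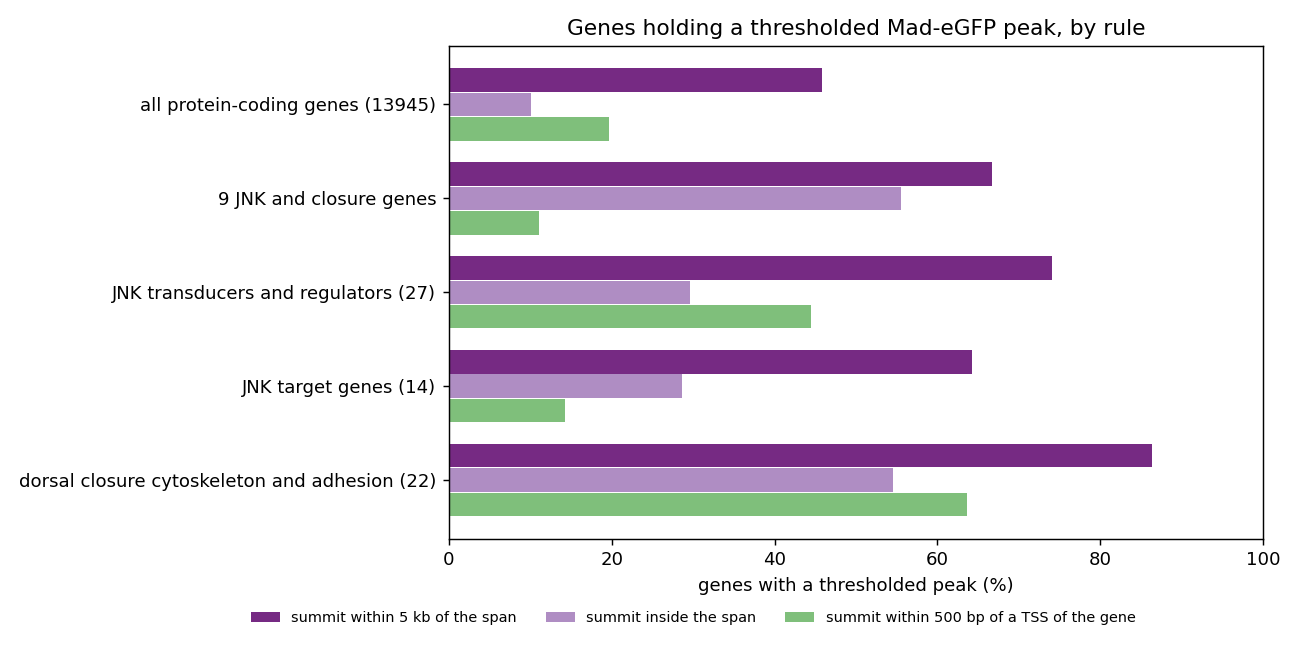
Bars give the percentage of genes with a thresholded summit by 3 rules, for all protein-coding genes, the 9 genes and the 3 other lists (number of genes in brackets). The bars are not matched for length, and the 9 genes are long. The 9 genes and the lists were chosen with earlier results of these data known. Within 5 kb, 6 of the 9 genes have a summit, near the mean of 56.1% in their length classes. Inside the span 5 of 9 have one, against 10.1% of all genes. Within 500 bp of an own TSS 1 of 9 has one, against 19.7%, which is near that share for so few genes.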

How the data were processed

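ChIP-seq of Mad-eGFP embryos was measured in 2 replicates of 1 group. Per the files deposited with the samples, the authors made a peak list for each replicate, 1 for both pooled, and 1 filtered on the irreproducible discovery rate, from alignments of the replicates with a control. Peak signal was used as deposited by the authors. Nothing used here states the aligner, the caller, the signal's formula or the depth of reads, so no interval is printed. The control and the dm3 lists were not used here.

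Peaks of build dm6 were joined to Ensembl release 115 annotation on 6 arms, without transposable elements, with Python 3.11, pandas 2.3.3 and numpy 2.4.6. Summits were classed in order as promoter (within 500 bp of any TSS), UTR (5' before 3'), exon (coding before other), intron and intergenic. A replicate peak that overlaps a pooled peak gives its replicate value, and 1 replicate peak can serve more than 1 pooled peak. Sequence comes from the Release 6 genome, in which 99.5% of 30748 annotated coding transcripts begin with ATG. The 9 genes, the pathway lists and the 11 motifs were chosen with earlier results of these data known. All 9 genes are named, with each neighbour whose TSS is nearest a peak and, per list, up to 5 bound genes with the strongest peak nearest an own TSS and 3 with it nearest another gene. Genes were not ranked by likeness of pattern, since 1 group gives none. Alternatives were another extension (0, 1 or 10 kb), the nearest TSS, 500 bp from an own TSS, the 1000 strongest peaks, overlap of the peak, 1 replicate's list alone, other matching of replicates and other motif windows. The scripts were tested on simulated peaks and genes with known answers.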

Additional observations from a re-analysis of the deposited data

How the results depend on the processing

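No paired analysis was possible because there is 1 group and no test. Of the 9 genes, 6 were bound, and 5 with the span not extended or extended by 1 kb, 4 by the nearest TSS, 1 (zip) by the rule of 500 bp from an own TSS, and 1 among the 1000 strongest peaks. With 10 kb, with overlap in place of the summit, and without replicate 1 or 2 the number was 6. The 20 transducers became 8 without extension, 13 by the nearest TSS, 12 within 500 bp of an own TSS and 12 among the 1000 strongest peaks, and 22 from either replicate alone. The 9 targets became 4 without extension, 2 within 500 bp of an own TSS, 2 among the 1000 strongest peaks, and 5 to 6 from 1 replicate. The 19 closure genes became 12 without extension and 7 among the 1000 strongest peaks. The share of all protein-coding genes bound was 45.8% with 5 kb, 10.1% without extension, 28.0% with 1 kb and 59.2% with 10 kb. It was 18.9% by the nearest TSS, 19.7% within 500 bp of an own TSS and 18.2% among the 1000 strongest peaks. These shares are not matched for length, and the 9 genes are long. All 16 thresholded peaks kept a replicate counterpart when at least 0.5 of each peak had to overlap, and 15 with summits within 100 bp. Of the 89 weaker summits, 40 were left when both replicate lists had to hold an overlapping peak. The causes were not tested. No read depth was at hand, and how far depth limits the weaker peaks was not tested.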

Other observations

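The letters CCANCTCTA and CACACTG were searched for after the windows of the 16 peaks had been read, so their counts are descriptions. CCANCTCTA was within 100 bp of the summit at 4 peaks (msn peaks 6, 7 and 8 and Jra peak 1), of which 3 are at the starts of RpL8, dos and 14-3-3zeta and msn peak 8 is 1251 bp downstream of the dos start. It was in 2.20% of all thresholded summits, in 3.44% of those at promoters and in 0.320% of the windows 600 bp to the side. CACACTG was at 3 intronic peaks (msn peaks 3 and 4 and kay peak 1). It was in 7.10% of all thresholded summits, 4.57% of intronic ones, 8.94% of those at promoters and 2.66% of the side windows. In the msn run at the 5' end, 3 of the 7 peaks stood at neighbours and 4 in msn introns. The peak near Jra with 58.7 in replicate 1 and none in the list of replicate 2 ranked 1292 in replicate 1.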
